A study of Mus musculus with 38 samples.

Results

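Sebaceous glands sit beside hair follicles and fill their cells with lipid, which is released as sebum when the cells burst. Mouse sebum holds wax diesters, sterol esters and triglycerides, so a sebocyte needs enzymes that desaturate and elongate fatty acids, reduce them to fatty alcohols and join acyl chains to alcohols or cholesterol. Most of the 10 genes described here act on that route. These are the desaturases Scd1 and Scd3, the elongase Elovl3, the fatty acyl-CoA reductase Far2, the wax synthases Awat1 and Awat2 and the sterol acyltransferase Soat1. The others are the peroxisomal oxidase Acox2, the melanocortin receptor Mc5r and the microsomal glutathione transferase Mgst1, which are not steps of it. All of these genes were taken by name out of 49585 genes listed, and all 10 were found. The name of the set is a label for where these genes are known to act in mouse skin, not a sort of sebaceous cells, and several of them are expressed in other tissues as well.

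RNA was sequenced from mouse back skin in which the gene of the splicing factor SRSF2 had been deleted (SRSF2-KO) or carried the P95H mutation (SRSF2-P95H). Both alleles were acted on by Krt14-CreER, a tamoxifen-dependent recombinase of the keratin 14 promoter, which is active in basal epidermal and follicular cells and in the basal cells of the sebaceous gland, and 4-hydroxytamoxifen was applied to the skin every other day in every whole-skin group. SRSF2-KO skin was taken at 4, 10 and 12 days (n = 3 each) and compared with Cre-negative skin of the same line (n = 3, of which 1 was treated for 10 days and the others for 12). SRSF2-P95H skin was taken at 12 days (n = 2) and 28 days (n = 4) and compared with Cre-negative skin of the SRSF2 MUT line at 12 days (n = 5) and 28 days (n = 3). The tdTomato reporter was wild type in the whole P95H set, whereas in the KO set it was homozygous, heterozygous or wild type. Reporter-positive cells were sorted from SRSF2-KO and control back skin after 10 days of 4-hydroxytamoxifen (n = 3 each). The labels call these controls ctr and give no Cre status for them. The same kind of cells came from SRSF2-P95H heterozygous and control mice, again with no Cre status, after 3 tamoxifen injections and DMBA/TPA over 20 weeks (DMBA is a mutagen, and TPA promotes growth of the tumours it starts) (n = 3 each). Libraries are labelled as biological replicates, and the age and sex of the mice are not used here.

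Whole-skin levels are given in steps, the whole-number unit of each library whose median gene is alike in all libraries of a set, and levels in sorted cells are normalised counts. Estimated depth was 24.97 to 36.84 M counts (M for mega) in the KO skin set and 7.394 to 32.26 M in the P95H skin set, and it was 45.93 to 92.76 M in sorted KO-set cells and 10.98 to 17.24 M in sorted P95H-set cells. In sorted cells Srsf2 was at 2973 ± 940.8 normalised counts in SRSF2-KO cells and 18780 ± 1602 in control cells (SD, n = 3 each; log2 change -2.71, limma adjusted p = 0.043). In whole skin, where cells outside the Krt14 lineage also carry Srsf2, its adjusted p was at least 0.164 at each KO time. Some libraries stood apart. Control replicate 1 of the KO set had the lowest level of most of the 10 genes (median -0.68 from the mean of its set on the log2 scale), and in sorted SRSF2-KO replicate 2 a single gene model, Gm26917, took 52.2% of all counts. In skin, fewer sebocytes and less RNA per sebocyte cannot be told apart. A change is written as rising or falling only where its p-value, adjusted over all genes tested, was below 0.05.

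RefSeq promoter windows (GRCm38.p6, around the transcription start) were at hand for 7 of the 10 genes, with 10 starts in all. Promoters of the genes that rose together in P95H skin are shown, chosen as those that hold a CCAAT box, CCAAT on either strand (so also read as ATTGG), which is set in capitals. Awat1 is chrX:100571997-100572296 on the plus strand, Acox2 is 1 of its 2 starts, chr14:8258790-8259089 on the minus strand, and Soat1 is chr1:156474279-156474578 on the minus strand.
Awat1: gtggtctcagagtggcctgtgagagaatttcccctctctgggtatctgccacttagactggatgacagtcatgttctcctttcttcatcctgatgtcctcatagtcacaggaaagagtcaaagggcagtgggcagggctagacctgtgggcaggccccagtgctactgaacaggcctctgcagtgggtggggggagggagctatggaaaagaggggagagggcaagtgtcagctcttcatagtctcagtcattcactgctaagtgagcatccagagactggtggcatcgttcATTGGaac
Acox2: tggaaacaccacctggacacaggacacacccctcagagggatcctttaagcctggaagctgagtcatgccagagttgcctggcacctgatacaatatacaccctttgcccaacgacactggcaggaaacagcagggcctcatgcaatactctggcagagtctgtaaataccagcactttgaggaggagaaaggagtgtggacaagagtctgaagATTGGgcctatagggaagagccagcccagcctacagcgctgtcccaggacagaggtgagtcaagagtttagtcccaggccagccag
Soat1: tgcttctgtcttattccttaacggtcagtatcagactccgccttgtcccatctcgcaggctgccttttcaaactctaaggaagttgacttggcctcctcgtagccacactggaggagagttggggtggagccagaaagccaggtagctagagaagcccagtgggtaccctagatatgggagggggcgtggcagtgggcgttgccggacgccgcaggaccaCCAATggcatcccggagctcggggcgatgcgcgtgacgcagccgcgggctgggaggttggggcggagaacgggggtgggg
The box began at position 42 after the start in Awat1, and at positions -36 in Acox2 and -30 in Soat1. Both windows of Awat2 held one as well. The other window of Acox2 (chr14:8258970-8259269) did not, nor did those of Mgst1, Far2 and Scd3. CCAAT was found in 37.4% of all 32851 RefSeq mouse promoter windows of this length. None of the windows of the 7 genes held CACNCCAC, a core of sterol response elements (6.24% of all windows, either strand), CACGTG, an E-box (7.15%), or TATAAA (13.6%). These are matches of letters and do not show that any factor bound there.

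The 10 genes lie on 5 autosomes and the X chromosome (GRCm38). Scd1 (chr19:44394455-44407879, minus strand) and Scd3 (chr19:44203269-44244016, plus strand) lie in the same cluster of desaturase genes, and Elovl3 (chr19:46131897-46135694, plus strand) is on the same chromosome. Awat1 (chrX:100572251-100578205, plus strand) and Awat2 (chrX:100402221-100442717, minus strand) lie near each other. Far2 (chr6:148047259-148182758, plus strand) shares chromosome 6 with Mgst1 (chr6:138140316-138156755, plus strand). Acox2 (chr14:8225511-8259353, minus strand), Soat1 (chr1:156424525-156474331, minus strand) and Mc5r (chr18:68337596-68342446, plus strand) stand alone. Of all 50-base stretches in Scd3 exons, 4.77% also occur in Scd1, 3.89% in Scd2 and 1.94% in Scd4. Of those of Scd1, 3.42% occur in Scd3. Counts could be split wrongly between desaturases over these parts, and shorter or inexact matches were not examined. Genes on the opposite strand overlap Scd3, Elovl3, Awat2, Far2 and Soat1, and whether counting used strand was not given in the sources used here.

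In skin the desaturase Scd1 was by far the most abundant of the 10 transcripts per kilobase of exon. In control skin of the P95H set at 12 days it stood at 7360 ± 1364 steps per kilobase (SD, n = 5), followed by Mgst1 with 814.4 ± 129.3 and Scd3 with 656 ± 223. Next came Far2 (497.2 ± 137.6), Soat1 (379.9 ± 95.73), Awat1 (194.2 ± 70.76), Elovl3 (172.2 ± 21.35) and Awat2 (83.91 ± 34.92). At the bottom were Mc5r with 45.08 ± 5.583 and Acox2 with 27.44 ± 5.631 steps per kilobase. Among neighbours in this order, the ranges of the 5 libraries stayed apart between Scd1 and Mgst1, Soat1 and Awat1, Elovl3 and Awat2, and Mc5r and Acox2, and they overlapped between the others. Control skin of the KO set had the same gene on top, with Scd1 at 10020 ± 3349 steps per kilobase, and the same pair at the bottom, with Acox2 at 92.54 ± 30.79 and Mc5r at 66.94 ± 16.12 (SD, n = 3).

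The clearest change of the set was in SRSF2-P95H skin at 12 days, where 7 of the 10 genes rose and none fell, against 6.93% of the 18311 genes tested that were called in either direction and 3.96% called higher. The 10 genes had a median log2 change of 1.1, and all genes tested had one of -0.0018. Groups did not overlap for 9 of the 10 genes, all but Scd3, against 27.8% of all genes tested. The genes that rose were Scd1, Elovl3, Far2, Awat1, Soat1, Acox2 and Mgst1. At 28 days the elongase Elovl3 was the 1 gene of the 10 that rose (12.2% of all genes called, 6.7% higher), and the median log2 change of the 10 genes was 0.21, against -0.015 over all genes.

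**Figure D1:**
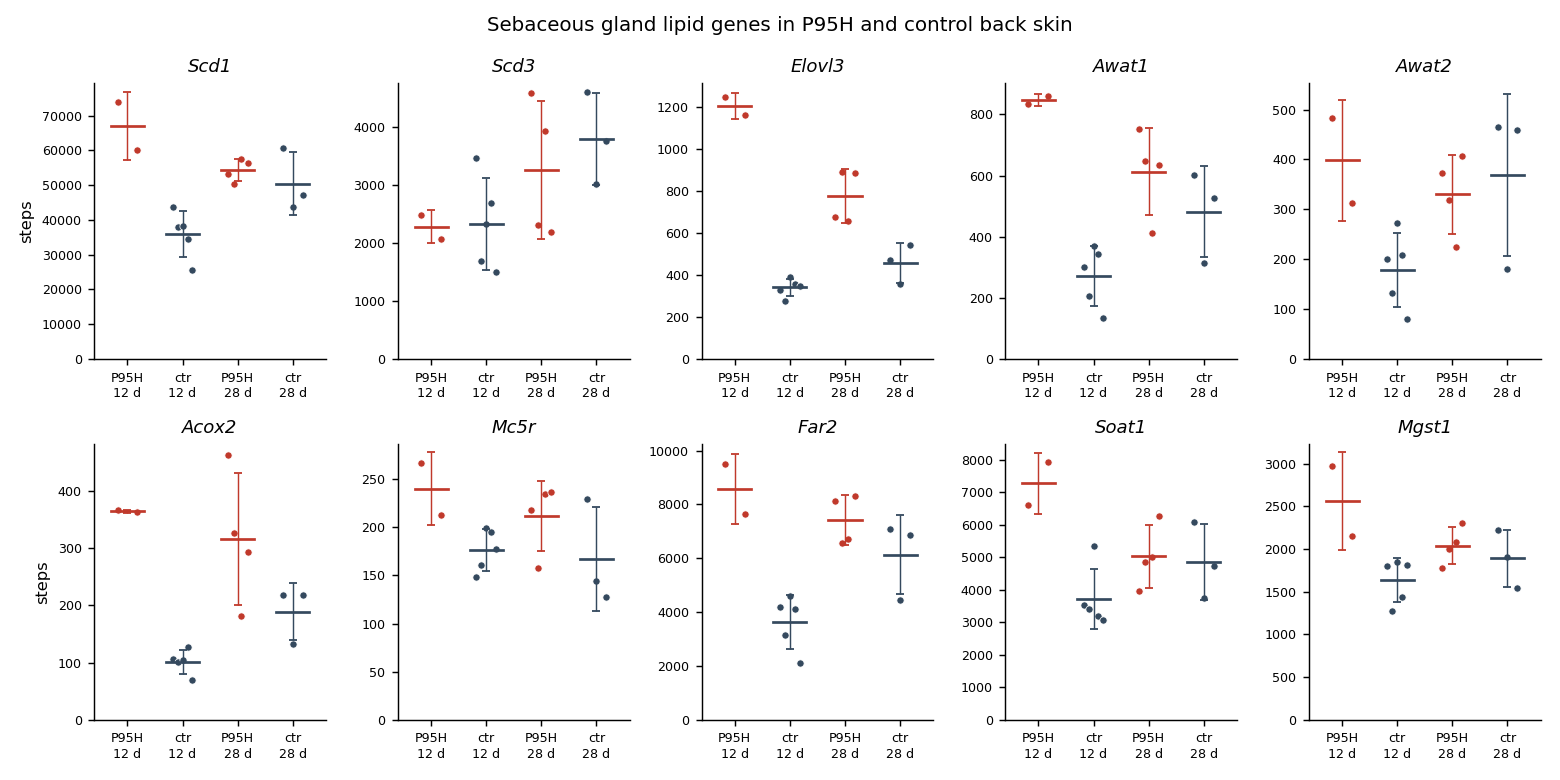
Levels of the 10 genes in whole skin of the P95H set, in steps on a linear axis. Points are libraries, lines are group means and bars are ± SD, for P95H at 12 days (n = 2), control at 12 days (n = 5), P95H at 28 days (n = 4) and control at 28 days (n = 3). At 12 days both P95H libraries lie above all 5 controls for 9 genes, all but Scd3.

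Among the enzymes that shape fatty acids, Scd1, which puts the first double bond into stearic and palmitic acid and whose loss in mice leaves sebaceous glands atrophic, had 74042 and 60206 steps in P95H skin at 12 days, against 43619, 37999, 38385, 34406 and 25614 steps in control skin. Both P95H libraries were above all 5 controls. The means were 67120 ± 9784 and 36000 ± 6674 steps (SD, n = 2 and n = 5), a 1.88-fold rise (log2 change 0.91, SE 0.18, adjusted p = 0.00585). Elovl3, which elongates fatty acids to very long chains and is needed for normal sebum in mice, had 1247 and 1160 steps in P95H skin at 12 days, against 328, 276, 390, 357 and 349 steps in control skin. It rose 3.55-fold there (1.83, SE 0.17, adjusted p = 3.57e-05), with a gap between groups wider than the whole range of the controls. Elovl3 also rose at 28 days, with 677, 891, 656 and 887 steps in P95H skin, against 469, 357 and 543 steps in control skin. That rise was 1.71-fold (0.77, SE 0.15, adjusted p = 0.00653) and again left no overlap between groups. Scd3, the desaturase whose expression in mouse skin is centred on the sebaceous gland, did not follow. It had 2484 and 2077 steps in P95H skin at 12 days, against 3462, 1683, 2320, 2683 and 1503 steps in control skin, so both P95H libraries lay inside the control range (log2 change 0.03, 95% interval -0.65 to 0.71, adjusted p = 0.969).

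The enzymes of wax synthesis were higher in P95H skin as well. Far2, which reduces fatty acyl-CoA to the fatty alcohols that waxes are built on, had 9484 and 7660 steps in P95H skin at 12 days, against 4184, 3150, 4614, 4119 and 2112 steps in control skin. It rose 2.43-fold (log2 change 1.28, SE 0.25, adjusted p = 0.00688). Awat1, which joins fatty alcohols to acyl chains, had 833 and 861 steps in P95H skin, against 300, 206, 368, 343 and 133 steps in control skin. Its rise was 3.34-fold (1.74, SE 0.35, adjusted p = 0.00727), and its lower P95H library was above every control. Awat2, the other wax synthase, had 484 and 312 steps in P95H skin, against 200, 133, 272, 208 and 79 steps in control skin. The groups did not overlap, but with a standard error of 0.43 the log2 change of 1.24 did not pass the threshold (adjusted p = 0.104).

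Soat1, which esterifies cholesterol, had 6611 and 7945 steps in P95H skin at 12 days, against 3547, 3417, 5364, 3187 and 3083 steps in control skin. It rose 1.99-fold (log2 change 0.99, SE 0.22, adjusted p = 0.0129), with control replicate 3 well above the other controls. Acox2, the peroxisomal oxidase of branched acyl chains and bile acid intermediates, had 367 and 363 steps in P95H skin, against 106, 101, 105, 127 and 69 steps in control skin. Its 3.63-fold rise (1.86, SE 0.30, adjusted p = 0.00184) was the largest of the 10 genes, on the smallest level per kilobase. Mgst1, a glutathione transferase of membranes that marks sebaceous cells in mouse skin, had 2971 and 2158 steps in P95H skin, against 1807, 1280, 1849, 1444 and 1817 steps in control skin. It rose 1.56-fold (0.64, SE 0.17, adjusted p = 0.0369), the smallest of the 7 rises. Mc5r, the melanocortin receptor that sebaceous glands of mice need for normal sebum output, had 267 and 213 steps in P95H skin, against 148, 161, 199, 195 and 177 steps in control skin. Both P95H libraries were above the controls, and the log2 change of 0.45 had an adjusted p of 0.236.

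The rises at 12 days rest on 2 P95H libraries. Without P95H replicate 1 there were 3 calls and without P95H replicate 2 there were 4, the lone library being assumed to vary like the other groups. Scd1 (log2 change 0.76) and Far2 (1.13) lost their call without replicate 1, Soat1 (0.86) without replicate 2, Awat1 without either, and Mgst1 without either or without control replicate 2 or 4. With the deposited values in place of steps, or with no filter on low values, there were 2 calls. Elovl3 and Acox2 kept their call in every alternative run.

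At 28 days the other 9 genes did not pass the threshold. Acox2 came nearest, with 463, 326, 182 and 293 steps in P95H skin, against 218, 132 and 218 steps in control skin (log2 change 0.70, adjusted p = 0.106). Awat1 had 751, 648, 413 and 636 steps in P95H skin, against 603, 315 and 527 steps in control skin (0.36, adjusted p = 0.473). Far2 had 8109, 6558, 6711 and 8313 steps in P95H skin, against 7081, 4436 and 6854 steps in control skin (0.30, adjusted p = 0.409). In each of these the groups overlapped, and Elovl3 was the 1 gene in which they did not (28.6% of all genes tested). Scd1 (0.12), Mgst1 (0.12), Soat1 (0.06), Mc5r (0.37), Awat2 (-0.07) and Scd3 (-0.28) had adjusted p-values of 0.225 to 0.93, and with the deposited values in place of steps, which move the median of all genes by 0.59, Awat2 and Scd3 had changes above 0.

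Whether the effect of P95H differed between the times was tested directly, as the change at 28 days minus that at 12 days. All 10 differences were below 0, with a median of -0.96 over the 10 genes and of -0.0054 over all genes tested, but none passed the threshold (0.0109% of all genes did). Scd1 had a difference of -0.79 (95% interval -1.3 to -0.28, adjusted p = 0.402), Elovl3 of -1.05 (adjusted p = 0.279), Awat1 of -1.37 (adjusted p = 0.491) and Acox2 of -1.16 (adjusted p = 0.495). With the deposited values, which move the median of all genes by 0.71 here, the differences of Mc5r, Mgst1 and Scd3 were above 0. The controls of the times were compared as well. Control skin at 28 days had higher values than control skin at 12 days for 9 of the 10 genes, all but Mc5r, with a median log2 difference of 0.62 over the 10 genes and of 0.002 over all genes, although none was called (0.00546% of all genes were). For 6 of these genes (Elovl3, Far2, Mgst1, Scd1, Scd3 and Soat1) that direction turned with the deposited values, which move the median of all genes by -0.82. Acox2 had 218, 132 and 218 steps in control skin at 28 days, against 106, 101, 105, 127 and 69 steps at 12 days. It was the 1 gene of the 10 without overlap between the control groups (10.8% of all genes tested), at a log2 difference of 0.88 and an adjusted p of 0.252.

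Genes around the route moved in the same skin, where 6.93% of all genes tested were called and 3.96% called higher. Of 30 other sebocyte markers and regulators tested, 11 rose in P95H skin at 12 days and none fell (median log2 change 0.39). Among them, the lipid droplet coat gene Plin2 changed by 1.04, the fatty acid hydroxylase gene Fa2h by 1.31 and the fatty acid binding protein gene Fabp5 by 1.43. The wax synthase relative Dgat2l6 rose by 1.79 (adjusted p = 0.00943), and Pparg, the nuclear receptor that drives sebocyte differentiation, by 0.71 (adjusted p = 0.0306). Of 29 genes of fatty acid and triglyceride synthesis, 9 rose and none fell (median 0.32), among them Elovl7 by 1.28 (adjusted p = 0.00102), Hsd17b12 by 0.85 (adjusted p = 0.00203) and Acly, which makes cytosolic acetyl-CoA, by 0.60 (adjusted p = 0.00231). The other desaturases did not pass, with Scd2 at 0.38 (adjusted p = 0.35) and Scd4 at 0.55 (adjusted p = 0.322), while the elongase Elovl6 rose by 1.53 (adjusted p = 0.0068). Of 24 genes of cholesterol synthesis and uptake, 11 rose and none fell (median 0.43), with Msmo1 at 0.81 (adjusted p = 0.00127). Of 16 genes of peroxisomal oxidation, 4 rose and none fell (median 0.29). Acox3, another peroxisomal oxidase, had 0.26 (adjusted p = 0.526). Of 6 melanocortin receptor and signalling genes tested none was called, and of 5 microsomal glutathione transferase genes the prostaglandin synthase Ptges rose by 0.98 (adjusted p = 0.00435).

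At 28 days, when 12.2% of all genes were called against 6.93% at 12 days, fewer genes of the 4 sebocyte, fatty acid, cholesterol and peroxisomal lists were called. Of the 30 other sebocyte genes 5 rose and none fell, among them Krt79 by 1.03 and Fabp5 by 1.01. In fatty acid synthesis 2 of 29 rose, in cholesterol synthesis 3 of 24 rose and 1 fell, and in peroxisomal oxidation 1 of 16 rose. Of the 6 melanocortin genes 1 rose and 1 fell (Adcy3 and Adcy6, adenylate cyclases), against none at 12 days, and of the 5 transferases Ptges rose again. Whether the lists differed between times was not tested. None of the 18 adipocyte markers was called at 28 days (median log2 change -0.32), 1 hair marker fell, and of the 15 epidermal markers 5 rose and 3 fell.

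Markers of other skin cells are given beside these results, and their part in them was not tested. In P95H skin at 12 days none of 18 dermal adipocyte markers was called (median log2 change -0.081), and their summed level was 65914 and 22267 steps in P95H skin, against 37463 to 45747 steps in control skin. For growing hair, 27 markers had a median log2 change of -2.3 with 1 call, lower, and their sum was 4907 and 9245 steps in P95H skin, against 7749 to 50525 steps in control skin. Of 15 markers of the epidermis between follicles 3 rose and 3 fell (median 0.079). Krt14, whose promoter drives the recombinase, rose by 0.94 at 12 days (adjusted p = 0.00766) and by 0.78 at 28 days (adjusted p = 0.0108). Of 12 macrophage and dendritic cell markers 2 rose, and of 10 fibroblast markers 1 did. Skeletal muscle markers summed to 143450 and 131237 steps in P95H skin, against 189039 to 222979 steps in control skin, without overlap, and of these 8 genes 1 fell (median -0.59).

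**Figure D2:**
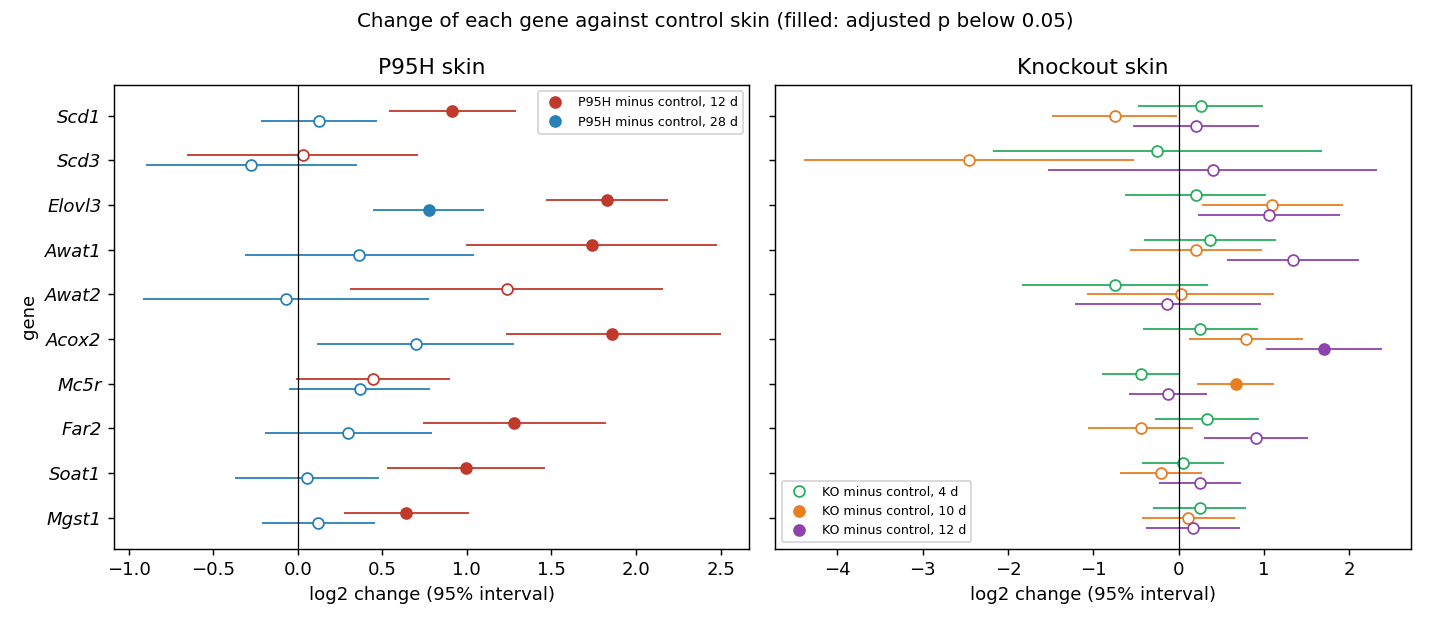
Log2 changes of the 10 genes with 95% intervals in whole skin against controls, P95H on the left and KO on the right, filled where the adjusted p was below 0.05. P95H at 12 days has 7 filled points, all above 0, and P95H at 28 days has 1, Elovl3. KO at 10 days has 1, Mc5r, KO at 12 days has 1, Acox2, and KO at 4 days has none.

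In SRSF2-KO skin few of the genes were called against controls. None was called at 4 days, 1 rose at 10 days (Mc5r) and 1 rose at 12 days (Acox2). The background differed widely between times, with 11.3% of the 19450 genes tested called at 4 days, 25.3% at 10 days (13.3% higher) and 1.28% at 12 days (0.823% higher). The median log2 change of the 10 genes was 0.22 at 4 days, 0.07 at 10 days and 0.33 at 12 days, and over all genes tested it was -0.0091, -0.021 and 0.0045 at these times. All 3 comparisons share the same 3 control libraries. Those controls spread widely, since control replicate 1 was the lowest of the 3 for 9 of the 10 genes, all but Awat2.

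**Figure D3:**
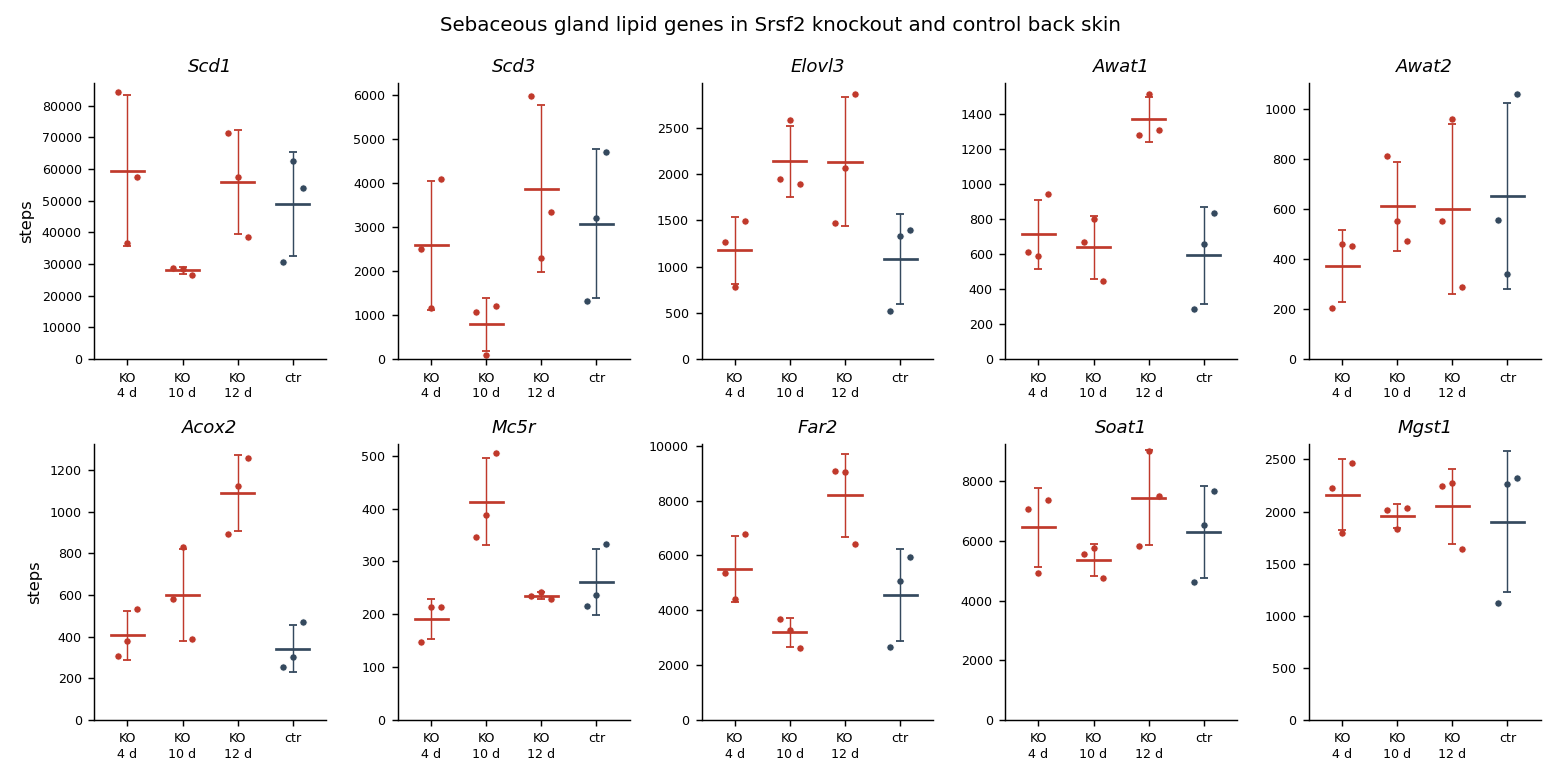
Levels of the 10 genes in whole skin of the KO set, in steps on a linear axis. Groups are KO at 4, 10 and 12 days and control (n = 3 each). Points are libraries, lines are group means and bars are ± SD. Scd1 and Far2 have their lowest mean and Mc5r its highest mean in KO skin at 10 days.

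At 4 days the log2 changes ran from -0.75 for Awat2 (adjusted p = 0.369) to 0.37 for Awat1 (adjusted p = 0.543). Mc5r had 147, 214 and 213 steps in KO skin at 4 days, against 215, 236 and 333 steps in control skin, the 1 gene without overlap (29.4% of all genes tested), at a log2 change of -0.44 and an adjusted p of 0.197. The related sterol esterification gene Soat2, a gene outside the 10, rose by 1.86 at this time (adjusted p = 0.0116), while Soat1 had 7063, 4935 and 7382 steps in KO skin and 4634, 6551 and 7685 steps in control skin (0.05, adjusted p = 0.917). Around them, when 11.3% of all genes tested were called, 2 of the other sebocyte genes fell and none rose. In fatty acid synthesis, cholesterol synthesis and peroxisomal oxidation 1 gene each rose. Of 12 macrophage and dendritic cell markers 8 rose (median log2 change 1.5), 9 of 10 fibroblast markers rose (1.2) and 4 hair markers fell, and their part in the values was not tested. Soat1 at 4 days was on the other side of 0 under both other scalings (-0.04 with the deposited values and -0.03 with equal totals).

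At 10 days Mc5r was the 1 gene of the 10 called, against 25.3% of all genes tested (13.3% higher). It had 346, 389 and 505 steps in KO skin, against 215, 236 and 333 steps in control skin, and the lowest KO library was above the highest control. The means were 413.3 ± 82.25 and 261.3 ± 62.95 steps (SD, n = 3 each), a 1.59-fold rise (log2 change 0.67, SE 0.21, adjusted p = 0.0369). The call depended on single libraries and on settings, since it was lost with no filter and with the compared groups alone. Without control replicate 1 the change was 0.54 (adjusted p = 0.116), it was also lost without control replicate 2, KO replicate 2 or KO replicate 3, and with libraries brought to equal totals, which moves the median of all genes by -0.34, it was 0.35 (adjusted p = 0.214).

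The desaturases lay lower in KO skin at 10 days without passing the threshold. Scd1 had 28753, 28363 and 26653 steps in KO skin, against 30755, 62421 and 53885 steps in control skin (log2 change -0.75, SE 0.34, adjusted p = 0.122). Scd3 had 1056, 93 and 1204 steps in KO skin, against 1319, 3206 and 4693 steps in control skin (-2.46, SE 0.88, adjusted p = 0.061). All 3 KO libraries were below all controls for both, and for Scd3 much of the size came from KO replicate 2, since without it the change was -1.26 (adjusted p = 0.175). Elovl3 went the other way, with 1944, 2583 and 1895 steps in KO skin, against 521, 1331 and 1391 steps in control skin, also without overlap (1.10, SE 0.38, adjusted p = 0.0535). In all, 4 of the 10 genes had no overlap at 10 days, against 43.1% of all genes tested. Acox2 had 580, 833 and 389 steps in KO skin, against 253, 304 and 471 steps in control skin (0.79, adjusted p = 0.0793). Far2 had 3688, 3272 and 2629 steps in KO skin, against 2666, 5047 and 5931 steps in control skin (-0.44, adjusted p = 0.263). The changes of Awat1 (0.20), Awat2 (0.02), Mgst1 (0.11) and Soat1 (-0.20) were small, and each was on the other side of 0 under 1 of the other scalings.

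The same libraries held many more hair transcripts. Of 27 markers of the hair shaft and inner root sheath 25 rose at 10 days (median log2 change 6.3), with sums of 4853222 to 6422055 steps in KO skin and 10863 to 263294 steps in control skin. Dermal adipocyte markers were lower, with 7 of 18 falling (median -1.2), sums of 42708 to 57616 steps in KO skin and 91717 to 174611 steps in control skin. Of 8 skeletal muscle markers 6 fell (median -1.3), and of 12 macrophage and 10 fibroblast markers none was called. The part of these other cells in the values of the 10 genes, several of which adipocytes also express, was not tested.

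The lists around the route were mixed at 10 days, when 25.3% of all genes tested were called and 13.3% called higher. Of 32 other sebocyte markers and regulators 4 rose and 6 fell (median -0.099), among them Prdm1, a transcriptional repressor, at 0.94 and the lipid droplet gene Plin5 at -1.80. In fatty acid and triglyceride synthesis 5 of 29 rose and 8 fell (median -0.19). The desaturase Scd2 rose by 0.98 (adjusted p = 0.0184), while the phosphatidate phosphatase Lpin1 (-1.02), the acyl-CoA synthetase Acsl1 (-1.22) and the triglyceride synthase Dgat2 (-0.74) fell. In cholesterol synthesis and uptake 6 of 25 rose and none fell (median 0.21), with the sterol synthesis gene Nsdhl at 0.68. In peroxisomal oxidation 2 of 17 rose and 5 fell (median -0.36), with Crot at 0.90 and Acox3 at -0.65 (adjusted p = 0.0357). Among 8 melanocortin genes 2 fell and Mc1r, the receptor of pigment cells, rose by 4.67 (adjusted p = 0.00647), with 1033 ± 437.9 steps in KO skin and 41.67 ± 26.65 steps in control skin (SD, n = 3 each).

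At 12 days it was Acox2 that rose. It had 894, 1123 and 1256 steps in KO skin, against 253, 304 and 471 steps in control skin, and the lowest KO library was far above the highest control. The means were 1091 ± 183.1 and 342.7 ± 114 steps (SD, n = 3 each), a 3.26-fold rise (log2 change 1.70, SE 0.31, adjusted p = 0.0272). Leaving out control replicate 1 gave 1.51 (adjusted p = 0.0854), and the call was also lost without control replicate 2 or without any 1 of the KO libraries, while the change stayed between 1.51 and 1.96. Awat1 had 1281, 1517 and 1311 steps in KO skin, against 286, 658 and 832 steps in control skin (1.34, SE 0.35, adjusted p = 0.0814). Far2 had 9093, 9044 and 6427 steps in KO skin, against 2666, 5047 and 5931 steps in control skin (0.91, SE 0.28, adjusted p = 0.114). Elovl3 had 1477, 2064 and 2873 steps in KO skin, against 521, 1331 and 1391 steps in control skin (1.06, SE 0.38, adjusted p = 0.16). These 4 genes had no overlap between groups, against 22.6% of all genes tested. The other 6 genes had adjusted p-values of at least 0.561. Among the genes around the route, the other reductase Far1 was the 1 sebocyte gene called (0.61, adjusted p = 0.045), with Dgat2l6 at 1.15 and an adjusted p of 0.0518, and in no other list was a gene called.

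The times of SRSF2-KO skin were also compared with each other. There more genes were called, among the 10 and among all genes alike. Between 12 and 10 days 6 of the 10 genes were called, 5 higher and 1 lower at 12 days. In that comparison 37.6% of all genes tested were called, 19.2% higher and 18.3% lower, and the median log2 difference was 0.69 over the 10 genes and 0.047 over all genes. For 7 of the 10 genes the groups did not overlap, against 50.6% of all genes tested. Far2 had 9093, 9044 and 6427 steps at 12 days, against 3688, 3272 and 2629 steps at 10 days, and rose 2.55-fold (log2 difference 1.35, SE 0.28, adjusted p = 0.00394). Scd3 had 5981, 2282 and 3342 steps at 12 days, against 1056, 93 and 1204 steps at 10 days (2.86, SE 0.88, adjusted p = 0.0258), and 1.66 with an adjusted p of 0.0613 without the 10-day library with 93 steps. Scd1 had 71478, 57548 and 38559 steps at 12 days, against 28753, 28363 and 26653 steps at 10 days (0.96, SE 0.34, adjusted p = 0.0433). Both desaturases thus stood above the 10-day range in every 12-day library. Awat1 rose by 1.14 (SE 0.35, adjusted p = 0.0261) and Acox2 by 0.91 (SE 0.31, adjusted p = 0.0361). Far2 was called without each of the 6 libraries in turn. Scd1 lost its call without any 10-day library or 12-day replicate 1 or 2 (0.75 to 1.26 over all alternatives), Scd3 without 10-day replicate 2 or 12-day replicate 1 or 3, Awat1 without any but 10-day replicate 2, and Acox2 without any but 10-day replicate 2 and 12-day replicate 1. With the deposited values Scd1, Awat1 and Acox2 were not called, and with no filter these and Scd3 were not. Of 32 other sebocyte genes 10 were higher and 7 lower at 12 days than at 10 days (median 0.27), and of 25 cholesterol genes 3 were higher and 9 lower (-0.34).

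Mc5r was the 1 gene called lower at 12 days. It had 234, 243 and 229 steps at 12 days, against 346, 389 and 505 steps at 10 days, 1.73-fold lower (log2 difference -0.79, SE 0.21, adjusted p = 0.0122), a call that was lost without 10-day replicate 3 (adjusted p up to 0.0844 over all alternatives) and with equal totals. In KO skin at 10 days against 4 days it was higher, with 346, 389 and 505 steps at 10 days and 147, 214 and 213 steps at 4 days (1.11, SE 0.21, adjusted p = 0.00157). In that comparison 3 of the 10 genes were called, against 40.3% of all genes tested. The other genes called were Scd1 (-1.01, SE 0.34, adjusted p = 0.0328) and Far2 (-0.77, SE 0.28, adjusted p = 0.045), both lower at 10 days. Their calls were lost without any 10-day library, without 4-day replicate 1 or 3, with the deposited values (adjusted p = 0.139 for Scd1 and 0.245 for Far2) and with no filter, while that of Mc5r held in every alternative. Scd1 had 28753, 28363 and 26653 steps at 10 days, against 84343, 36636 and 57347 steps at 4 days, and Far2 had 3688, 3272 and 2629 steps at 10 days, against 5342, 4394 and 6764 steps at 4 days. Between 12 and 4 days none of the 10 was called (0.144% of all genes were), with Acox2 nearest at 1.45 (adjusted p = 0.0836). Elovl3 overlapped between 12 and 10 days, with 1477, 2064 and 2873 steps at 12 days and 1944, 2583 and 1895 steps at 10 days (-0.04, adjusted p = 0.945, and 0.27 with equal totals). The comparisons between times share the 10-day libraries, in which all 27 hair markers were higher than at 12 days (median log2 difference -9.4 at 12 days). Of other markers, 7 of 8 of skeletal muscle (median 1.3), 8 of 12 of macrophages (0.98), 7 of 10 of fibroblasts (1.0) and 3 of 18 of adipocytes (0.23) were higher at 12 than at 10 days, and none was lower. At 10 against 4 days 9 of 12 macrophage (-1.8), 9 of 10 fibroblast (-1.5), 8 of 18 adipocyte (-1.1) and 1 of 8 muscle markers (-0.74) were lower, and none was higher. The part of these cells in the differences was not tested. Other scalings move the median of all genes by -0.16 and 0.35 between 12 and 10 days and by 0.34 and -0.26 between 10 and 4 days, and no called gene changed direction under them.

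**Figure D4:**
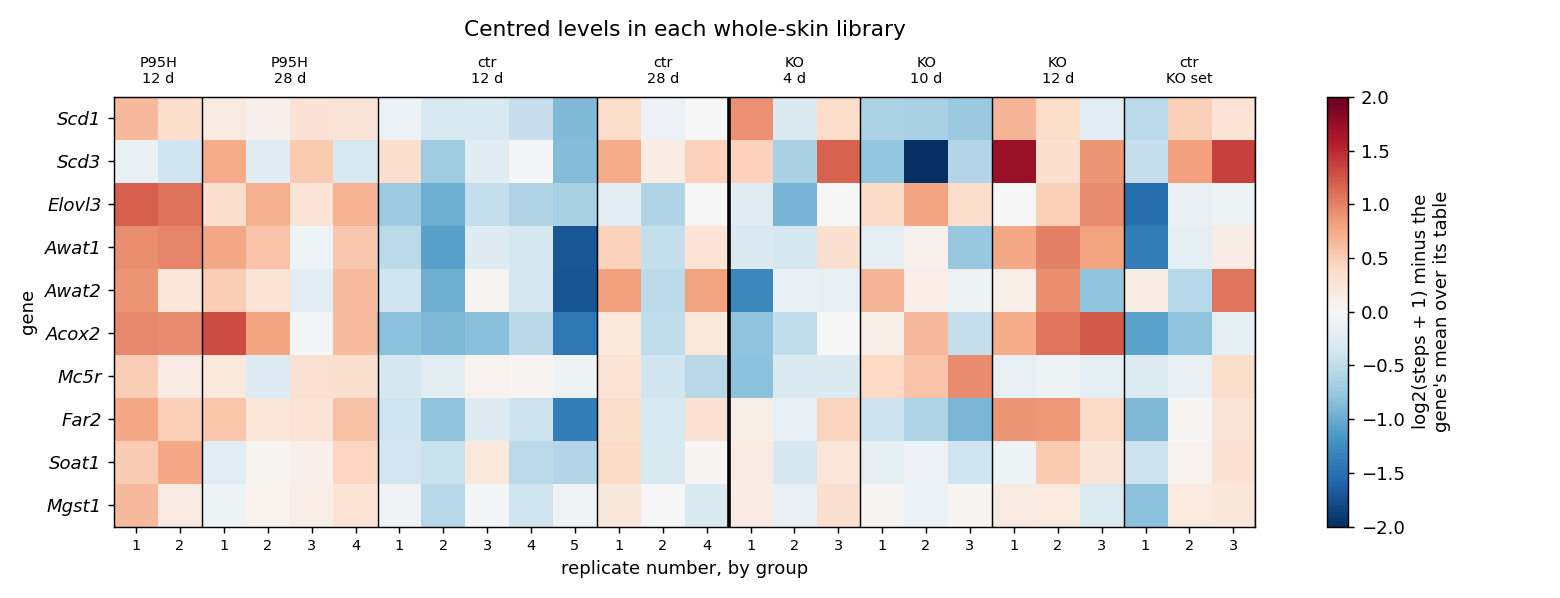
Heat map of the 10 genes (rows) in the 26 whole-skin libraries (columns), as log2(steps + 1) minus the mean of the gene in its set, with P95H at 12 and 28 days and controls at 12 and 28 days on 1 side and KO at 4, 10 and 12 days and controls on the other. The median of the 10 genes is 0.71 and 0.41 in the P95H libraries at 12 days and -0.25 to -0.87 in controls at that time. At 28 days it is 0.17 to 0.49 in P95H libraries and -0.35 to 0.36 in controls. Scd3 in 1 KO library at 10 days is the lowest value of its row.

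Over all 26 whole-skin libraries the genes kept together to different degrees. The root mean square difference of a gene's centred log2 profile from the median profile of the other members was 0.305 for Soat1, 0.309 for Far2 and 0.361 for Mgst1, and 0.398 for Awat1 and 0.406 for Scd1. It was larger for Elovl3 (0.506), Acox2 (0.538), Mc5r (0.564) and Awat2 (0.596), and largest for Scd3 (1.08), whose levels spanned 5.99 on the log2 scale. These are descriptions of libraries that share their groups and their scaling. The 8 genes outside the set nearest to its median profile, among 13990 with a mean of at least 50 steps in both sets, were Elovl4 (0.156), Hsd17b12 (0.164), Tlcd2 (0.165), Cers4 (0.167), Secisbp2l (0.201), Tmem164 (0.205), Lpcat3 (0.214) and Cers5 (0.216). The median over those 13990 genes was 0.484. That median was taken against the profile of all 10 genes, unlike the values of the members above. Against the same profile, of which each member is a part, Elovl3 ranked 4108 and Acox2 6316 in order of nearness. Mc5r ranked 8116, Awat2 9702 and Scd3 13698. By library, 9 of the 10 genes were above the mean of their set in both P95H libraries at 12 days. In the 5 controls of that time 0 to 3 were. At 28 days 8, 8, 7 and 9 were in the P95H libraries, and 9, 2 and 6 were in the controls.

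In sorted reporter-positive control cells the level of Mgst1 was near that of whole skin, and the other 9 transcripts had lower mean levels than in skin. Per kilobase and M counts, control sorted cells of the KO set had 92.89 ± 19 of Scd1, and control skin of that set had 345.3 ± 121.6 (SD, n = 3 each). Mgst1 was at 25.38 ± 12.82 in sorted cells and 32.6 ± 12.23 in skin, and Mc5r at 0.7847 ± 0.5973 in sorted cells and 2.302 ± 0.6111 in skin. Soat1 was at 4.161 ± 2.492 in sorted cells and 22.12 ± 5.982 in skin, and Far2 at 2.383 ± 1.173 in sorted cells and 21.46 ± 8.437 in skin. Elovl3 was at 1.48 ± 1.107 in sorted cells and 18.91 ± 8.834 in skin, Awat2 at 1.265 ± 0.6188 in sorted cells and 10.55 ± 6.212 in skin, and Acox2 at 0.5069 ± 0.302 in sorted cells and 3.188 ± 1.139 in skin. The gap was widest for Scd3 and Awat1. Scd3 was at 0.2869 ± 0.08592 in sorted cells and 29.95 ± 17.05 in skin, and Awat1 at 0.143 ± 0.1161 in sorted cells and 14.73 ± 7.226 in skin. By mean, Scd3 was thus 9th and Awat1 last of the 10 genes in sorted cells. Per kilobase, the library ranges of neighbours in that order overlapped from Soat1 down, so these ranks are not firm. The tables were normalised separately, so these levels were not tested against each other. The 8 skeletal muscle markers summed to 79 to 114 normalised counts in sorted control cells, and Adipoq, the adipocyte hormone gene, was at 0 to 2.269 normalised counts in them.

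**Figure D5:**
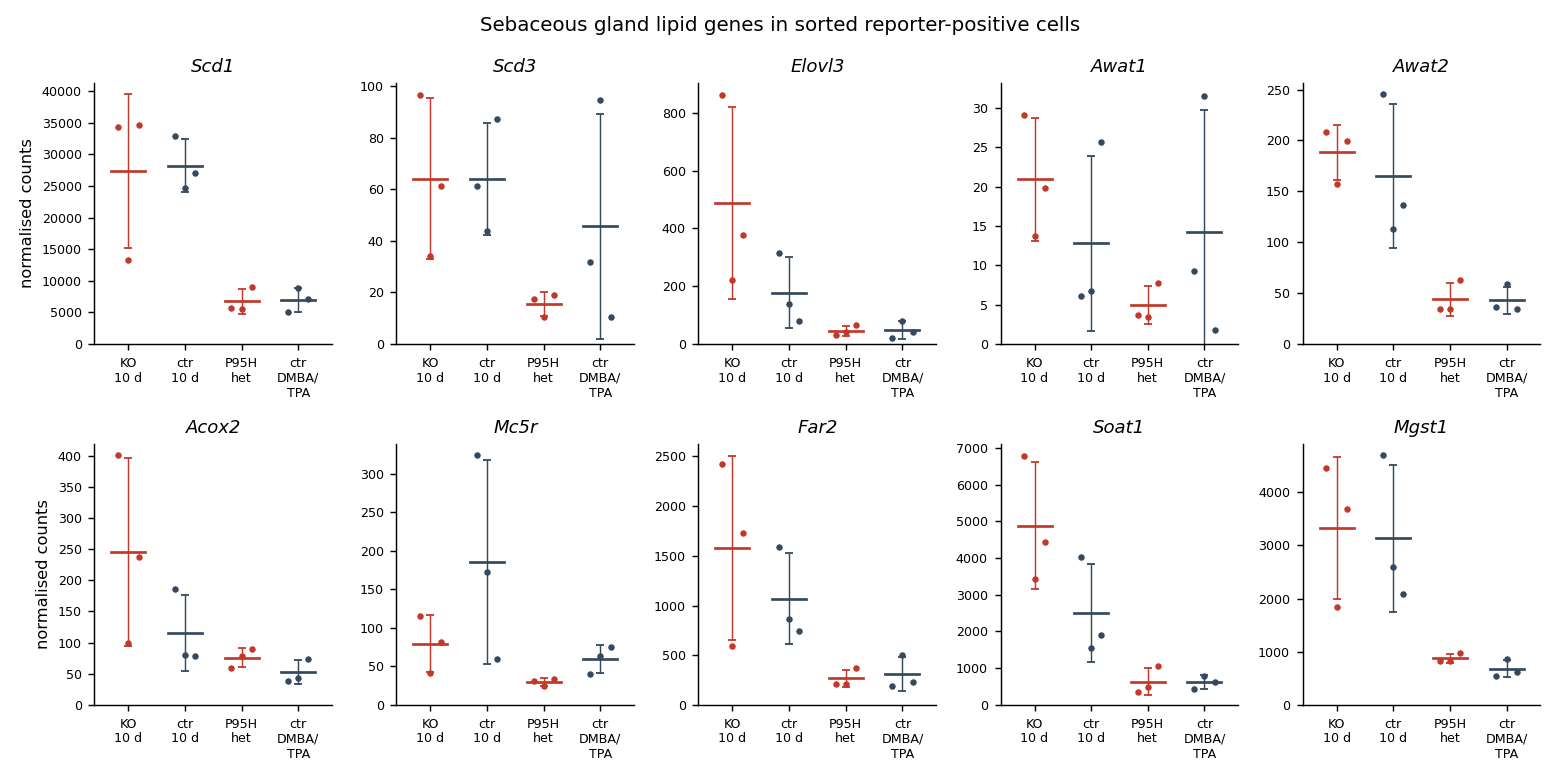
Levels of the 10 genes in sorted reporter-positive cells, in normalised counts on a linear axis. Groups are SRSF2-KO and control cells at 10 days, and SRSF2-P95H heterozygous and control cells after DMBA/TPA (n = 3 each). Points are libraries, lines are group means and bars are ± SD. In the KO set the groups overlap for all 10 genes, and after DMBA/TPA for all but Mc5r.

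In sorted SRSF2-KO cells none of the 10 genes was called, and for all 10 the groups overlapped, against 0.0394% of 17744 genes called and 28.6% without overlap. Elovl3 had 861.9, 222.6 and 378.6 normalised counts in KO cells, against 314.7, 138.4 and 78.68 in control cells (log2 change 1.46, adjusted p = 0.292). Soat1 had 6786, 3431 and 4431 normalised counts in KO cells, against 4028, 1556 and 1902 in control cells (1.04, adjusted p = 0.256). Acox2 had 400.7, 99.3 and 237.6 normalised counts in KO cells, against 185.3, 80.36 and 78.68 in control cells (0.998, adjusted p = 0.404). In these 3 genes the KO cells of replicate 2, the library with 1 dominant gene model, had the lowest KO value. Without that library Elovl3 had a change of 1.91 (adjusted p = 0.105) and Acox2 of 1.54 (adjusted p = 0.0935). Mc5r had 115.1, 41.09 and 82.22 normalised counts in KO cells, against 323.8, 172.9 and 59.86 in control cells (-1.03, adjusted p = 0.449), while in whole skin at the same time its change was 0.67. Scd1 had 34311, 13344 and 34600 normalised counts in KO cells, against 32861, 24748 and 27096 in control cells (-0.16). Without KO replicate 2 its change was on the other side of 0 (0.297, adjusted p = 0.283). Leaving out that library raised the calls over all genes to 407, none of them among the 10. Awat1 rested on 41, 4 and 22 reads in KO cells and 8, 10 and 30 reads in control cells, too few to set a level.

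In sorted cells after DMBA/TPA none of the 9 genes tested was called, as was no gene at all (0% of 14914 genes by limma, although 2376 had an unadjusted p below 0.05, edgeR called 1 and DESeq2 called 338 on the recovered reads). With the replicate number as a block limma called 113 of all genes tested, none of them among the 9. Awat1 did not reach a mean of 10 normalised counts and was not tested. Mc5r had 30.82, 24.21 and 33.42 normalised counts in P95H heterozygous cells, against 39.9, 63.1 and 74.97 in control cells. It was the 1 gene without overlap (21.5% of all genes tested), at a log2 change of -0.95 (SE 0.27, adjusted p = 0.183). Elovl3, which rose in whole P95H skin at both times, had 30.82, 39.78 and 65.12 normalised counts in P95H heterozygous cells, against 18.62, 80.73 and 40.5 in control cells (0.12). Acox2 had 59.17, 77.83 and 89.11 normalised counts in P95H heterozygous cells, against 38.57, 43.62 and 74.11 in control cells (0.56, adjusted p = 0.348). Scd1 had 5656, 5537 and 9017 normalised counts in P95H heterozygous cells, against 4991, 8820 and 7097 in control cells (-0.05, and 0.05 with equal totals). The median log2 change of the 9 genes was -0.049, and that of all genes -0.0083. In neither sorted comparison was any gene of the lists around the route called.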

How the data were processed

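Total RNA was extracted with Trizol and made into stranded total RNA libraries (a TruSeq Stranded Total RNA Gold kit for the KO set, a Ribo-zero plus kit for the P95H set), per the labels' protocols. STAR, featureCounts and DESeq2 are named in the submitters' processing notes, and the versions of these tools and the build were not given in the sources used here. In all 4 tables (38 libraries) the signal deposited by the authors is a gene's normalised count. All values (100%, tolerance 0.001) were whole multiples of 1 step per library. In sorted cells the multiples were taken as reads. In whole skin they already had like medians, undetected genes sat at 1 step, and the deposited values carried a further division by library (1 step was worth 0.8212 to 1.452 in the KO set and 0.4991 to 2.352 in the P95H set). Steps were therefore analysed for skin, although the plan named normalised counts, and deposited values for sorted cells. Depth in skin is an estimate from steps and that factor, and it limits counting precision.

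Genes with a mean of at least 10 were tested with limma 3.58.1 and a mean-variance trend on log2(value + 1), with a separate fit for each table, two-sided, adjusted by Benjamini-Hochberg over all genes tested, threshold 0.05. Fold changes are on the log2(value + 1) scale. The fit was run on simulated data for KO skin at 10 days, P95H skin at 28 days and both sorted comparisons. P95H skin at 12 days was not simulated. The outcome is not given here, so it is no measure of how well changes are recovered. edgeR 4.0.16 and DESeq2 1.42.0 on the reads of sorted KO-set cells called 3 and 1256 genes, against 7 by limma (3051 at an unadjusted p below 0.05). The members and lists were chosen with earlier results of these data known. Genes named beside the 10 are Srsf2, relatives of the 10, the 3 genes of a described list with the smallest p and the 8 genes nearest in profile. Adipoq, Krt14 and further examples from the lists fall outside this rule and were picked with their values known. Positions are from GENCODE M21 (GRCm38), matched by identifier. Further software was R 4.3.3 with data.table (release 1.17.8), and python 3.11.15 with matplotlib 3.10.9, numpy 2.4.6 and pandas 2.3.3. Some genes of the lists are not reported here.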

Additional observations from a re-analysis of the deposited data

Results flagged for a closer look

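Soat1 in control replicate 3 of the P95H set at 12 days stood apart from the other 4 controls of its group, with 5364 steps. It was the 1 such library among 20 pairs of gene and group examined, and chance gives about 1 in 20.

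Levels in SRSF2-KO whole skin differed between times for several genes, by limma over all genes. Between 10 and 4 days Mc5r differed by 1.11, Scd1 by -1.01 and Far2 by -0.77 on the log2 scale, with 10-day skin higher for Mc5r and lower for Scd1 and Far2. Between 12 and 10 days Far2 differed by 1.35, Scd3 by 2.86, Awat1 by 1.14, Scd1 by 0.96, Acox2 by 0.91 and Mc5r by -0.79, with 12-day skin higher for all but Mc5r. The KO set has 1 control group, of 10 and 12 days, so the effect of deletion and that of time cannot be told apart here, and hair markers differed by a median of -9.4 between 12 and 10 days.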

How the results depend on the processing

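Of 1538 values of the 10 genes under other settings, 1332 kept their direction and side of the threshold, 77 lost and 21 gained a call, 108 values without a call moved, and no called value reversed. Most of the 1538 belong to results not called at first, which had no call to lose, so the 1332 do not measure how well calls held. Among called genes the lowest share kept was 4 of 12 alternatives, for Scd1 and Far2 between 10 and 4 days and Scd1 between 12 and 10 days. Among the called genes, Elovl3 and Acox2 in P95H skin at 12 days, Elovl3 at 28 days, Mc5r between 10 and 4 days and Far2 between 12 and 10 days kept their call in every alternative. The number of the 10 genes called moved as follows. In KO skin at 10 days it was 1, and 4 with deposited values, 2 with equal totals, 0 with no filter and 0 with the compared groups alone. With no filter it was 0 in place of 1 at 12 days, 1 in place of 3 between 10 and 4 days, 2 in place of 6 between 12 and 10 days and 2 in place of 7 in P95H skin at 12 days. With deposited values it was 3 between 12 and 10 days and 2 in P95H skin at 12 days. Leaving out each library in turn gave 0 to 3 at KO 10 days, 0 to 1 at KO 12 days, 1 to 3 between 10 and 4 days, 2 to 4 between 12 and 10 days, 3 to 7 in P95H skin at 12 days and 1 to 2 at 28 days. The cause was not tested. Correlations of same-numbered deviations were of both signs in whole skin (-0.458 to 0.84). In sorted cells they were all above 0, at 0.0578 to 0.19 in the KO set and 0.0564 to 0.15 in the P95H set. Pairs of unlike number had -0.159 to -0.0053 and -0.141 to 0.0238 there, so whether numbers pair the sorted samples was not settled. With the replicate number as a block the count was 3 at KO 10 days and 2 in P95H skin at 28 days. No other count moved by over 1.5 times, although Scd1 and Far2 between 10 and 4 days and Scd1 between 12 and 10 days lost their call under it. In KO skin at 10 days over all genes, 2593 rose and 2320 fell, against 3418 and 550 with deposited values and 1201 and 6818 with equal totals. Over all genes, calls ranged from 295 to 2585 at KO 4 days (2205 reported), 1424 to 8019 at KO 10 days (4913), 43 to 270 at KO 12 days (249), 3 to 61 between 12 and 4 days (28), 200 to 1438 in P95H skin at 12 days (1269), 628 to 2531 at 28 days (2226), 1 to 71 for the difference of P95H effects (2), 0 to 454 between controls (1), 0 to 1256 in sorted KO cells (7) and 0 to 338 after DMBA/TPA (0). Depth limits Awat1 and Scd3 in sorted cells, and the number of libraries limits P95H skin at 12 days.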
